A study of Mus musculus with 6 samples.

Results

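The chemokine ligands that cells of the myeloid lineage make were examined as a group of 10 genes, Ccl2, Ccl3, Ccl4, Ccl5, Ccl6, Ccl7, Ccl9, Ccl12, Cxcl2 and Cxcl10, chosen by gene symbol from the 57010 genes of the count table. All 10 were found, and 8 of them passed the filter on low counts that left 18114 genes for testing. RNA came from monocytes of untreated C57BL/6 mice (C57BL/6J in the study's methods) of both sexes at 1 year of age, and the femur (S13, S15 and S18) and the mandible (S16, S19 and S23) gave 3 libraries each. Marrow was flushed from each bone, and monocytes were taken as the cells that a magnetic column did not hold after antibody labelling of other cell types, so cells without those labels could pass as well. The sources used here do not say whether a library was made from 1 animal or several, nor which femur and mandible libraries came from the same animals, so p-values measure the spread between these libraries. The comparison addresses the question raised by the study of whether mandibular-derived monocytes express genes that attract monocytes to inflammatory sites.

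Chemokines are small secreted proteins that bind receptors on leukocytes and direct their movement along a gradient. CC chemokines, named Ccl, mainly attract monocytes, lymphocytes and eosinophils, while CXC chemokines, named Cxcl, attract neutrophils or activated T cells according to their subgroup. Many are silent in resting cells and are switched on by NF-κB, AP-1 or interferon signaling, whereas Ccl6 and Ccl9 are made by resting myeloid cells. In bone marrow, Ccl2 acting on its receptor Ccr2 helps monocytes to leave for the blood, and Ccl9 and Ccl3 act on Ccr1, a receptor found on osteoclast precursors.

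Of the 10 genes, 8 lie on chromosome 11 of the mouse genome (GRCm38) and fall into a pair of gene clusters. Ccl2 (82035571 to 82037453), Ccl7 (82045712 to 82047525) and Ccl12 (82101845 to 82103400) occupy 67.8 kb on the plus strand. Ccl5 (83525778 to 83530518), Ccl9 (83572919 to 83578636), Ccl6 (83587882 to 83593087) and Ccl3 (83647844 to 83649355) on the minus strand and Ccl4 (83662584 to 83664683) on the plus strand occupy 138.9 kb, at a distance of 1422 kb from the first cluster. Cxcl2 (90903871 to 90905938, plus strand) and Cxcl10 (92346638 to 92348889, minus strand) are on chromosome 5. These spans are whole genes with exons and introns.

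The promoters of the pair with the highest level, Ccl6 and Ccl9, and of the CXC pair are shown from 250 bases before to 50 bases after the transcription start (RefSeq, GRCm38.p6), to set the constitutive genes beside a pair of inducible ones. Promoter sequences were matched for 6 of the 10 genes. Capitals mark matches, on either strand and with overlaps allowed, to the TATA box TATAAA, the AP-1 site TGANTCA, the ETS site AGGAAGT that is shared by the myeloid factor PU.1, the interferon response motif (GAAA, 2 bases of any kind, GAAA) and the NF-κB consensus, which were found in 13.6%, 7.81%, 9.35%, 3.44% and 8.46% of 32851 promoters of the same length.
Ccl6 (chr11:83593038-83593337, minus strand): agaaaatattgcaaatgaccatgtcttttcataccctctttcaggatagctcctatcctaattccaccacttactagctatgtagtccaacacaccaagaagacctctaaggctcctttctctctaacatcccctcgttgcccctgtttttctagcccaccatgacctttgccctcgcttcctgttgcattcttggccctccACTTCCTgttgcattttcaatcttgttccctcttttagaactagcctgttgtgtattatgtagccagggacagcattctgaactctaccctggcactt
Ccl9 (chr11:83578587-83578886, minus strand): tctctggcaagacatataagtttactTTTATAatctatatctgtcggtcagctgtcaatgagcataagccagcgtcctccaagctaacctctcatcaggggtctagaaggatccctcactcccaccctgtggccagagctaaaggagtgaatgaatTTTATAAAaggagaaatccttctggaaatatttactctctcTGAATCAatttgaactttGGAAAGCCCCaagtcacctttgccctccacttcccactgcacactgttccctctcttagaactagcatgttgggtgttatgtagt
Cxcl2 (chr5:90903649-90903948, plus strand): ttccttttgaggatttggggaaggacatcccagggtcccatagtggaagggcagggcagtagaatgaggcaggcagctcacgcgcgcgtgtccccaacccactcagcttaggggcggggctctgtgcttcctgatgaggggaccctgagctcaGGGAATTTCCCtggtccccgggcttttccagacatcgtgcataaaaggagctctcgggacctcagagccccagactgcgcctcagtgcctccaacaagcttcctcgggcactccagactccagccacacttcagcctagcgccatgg
Cxcl10 (chr5:92348840-92349139, minus strand): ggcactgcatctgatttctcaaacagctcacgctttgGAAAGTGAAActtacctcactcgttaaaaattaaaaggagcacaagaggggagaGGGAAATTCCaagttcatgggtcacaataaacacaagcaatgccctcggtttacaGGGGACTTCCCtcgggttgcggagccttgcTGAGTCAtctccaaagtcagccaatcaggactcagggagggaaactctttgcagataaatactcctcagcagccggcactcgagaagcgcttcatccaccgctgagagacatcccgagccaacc
Ccl6 held 1 match, to the ETS site at -48 to -42, counted from the transcription start. Ccl9 held matches to the TATA box at -224 to -219 and between -94 and -87, to AP-1 at -53 to -47 and to NF-κB at -35 to -26. Cxcl2 held overlapping NF-κB matches between -97 and -87, and Cxcl10 held NF-κB matches at -159 to -150 and between -104 and -94, AP-1 at -74 to -68 and the interferon response motif at -213 to -204. The Ccl6 and Ccl9 sequences aligned over 74 positions around the start, gaps included, of which 58 were identical. Of the matched promoters not printed, that of Ccl3 held no match to these motifs. That of Ccl12 held the TATA box at -31 to -26 and the ETS site at -228 to -222. A match describes letters in this window and is not evidence of binding.

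The libraries held 15718782 (mandible S23) to 25371474 (femur S18) counts, and a count of 0 allows up to 3 counts, or 0.118 to 0.191 CPM (counts scaled to a common library total) before TMM scaling, for counting error alone. Expression is given as CPM scaled by TMM, the trimmed mean of M values. The 11 monocyte markers summed to 10293 to 17439 CPM in femur libraries and 9353 to 16804 CPM in mandible libraries. None of the 11 passed the edgeR test described next, against 5.18% of all tested genes, and 7 had a log2 fold change above 0. Of the 11, 2 had an unadjusted p under 0.05, against 16.4% of all tested genes. These were Fn1 (log2 fold change 0.997) and, named here after its values were seen, Cx3cr1 (0.87). Fn1 was called under DESeq2 (adjusted p = 0.047). In the edgeR test, 10 of 12 mesenchymal and osteoblast markers were higher in the mandible. That list summed to 8746 to 15140 CPM in the mandible against 304 to 405 CPM in the femur. Megakaryocyte and platelet markers summed to 890 to 1249 CPM in femur libraries and 98.3 to 159.6 CPM in mandible libraries, and 10 of the 11 tested were lower in the mandible. Mandible S23 had 25189 counts of Xist and no count of Ddx3y, Eif2s3y, Kdm5d or Uty. The other 5 libraries had at most 12 counts of Xist and had counts of each of these Y-linked genes. No femur library had the pattern of S23, so these sex-linked genes were not balanced between the sites. Values without S23 are therefore also given for the ligands whose sign changed.

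None of the 8 tested chemokine ligands was differentially expressed between mandibular- and femur-derived monocytes when a call required both an adjusted p under 0.05 and at least a 2-fold change (edgeR quasi-likelihood test, adjusted by the Benjamini-Hochberg method, BH, over 18114 genes). Over all tested genes 5.18% were called, 3.88% higher and 1.30% lower in the mandible. At an unadjusted p under 0.05 the number was 1 of 8 ligands, Ccl5, against 16.4% of all tested genes. The groups overlapped for every one of the 8 ligands, while they did not overlap in 24.2% of all tested genes. A log2 fold change above 0 was seen for 5 of the 8 ligands and for 47.8% of all tested genes. The median over the ligands was 0.07, against -0.04 over all tested genes. Without mandible S23 only 2 of the 8 lay above 0 and the median was -0.29, without femur S13 it was -0.23 and without mandible S19 -0.05, whereas a correction on gene length gave 0.75, so neither the count nor the median set a direction. Under DESeq2, edgeR's exact test and limma-voom none of the 8 was called either. The 95% intervals leave room for differences. Those of Ccl2, Ccl4, Cxcl2 and Cxcl10 were wider than 2 log2 units. Those of Ccl3, Ccl5, Ccl6 and Ccl9 reached log2 fold changes of 1.03, 1.94, -1.23 and -1.03. A 2-fold difference therefore lay within the interval of each tested ligand.

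**Figure D1:**
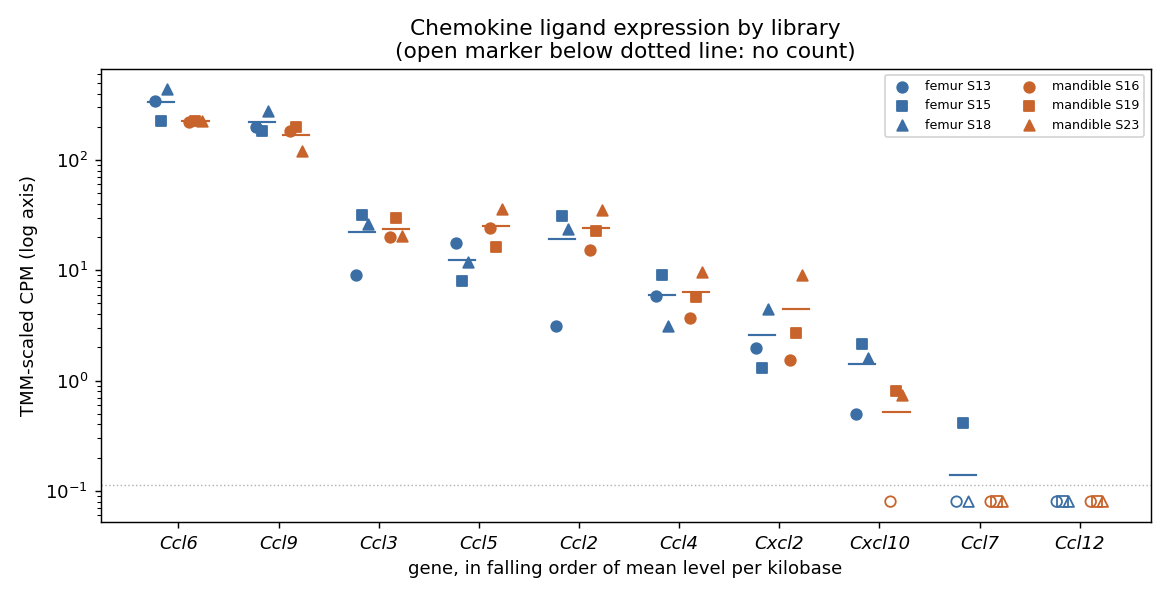
Expression of the 10 chemokine ligands by library, in TMM-scaled CPM on a log axis, with femur-derived (blue) and mandibular-derived (orange) monocytes, a marker for each library and a bar at each group mean; open markers under the dotted line are libraries without a count. Ccl6 and Ccl9 lay between 120 and 438 CPM in every library, Ccl12 had no count, and the groups overlapped for each tested gene.

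Levels between genes were compared per length, as CPM per kilobase of exon. In the mean of all 6 libraries, Ccl6 was at 155.7 ± 50.2 (SD, n = 6), Ccl9 at 63.4 ± 16.3, Ccl3 at 29.8 ± 10.8, Ccl5 at 19.8 ± 10.4, Ccl2 at 19.2 ± 10.1, Ccl4 at 9.33 ± 4.07, Cxcl2 at 1.69 ± 1.41 and Cxcl10 at 0.430 ± 0.347 CPM per kilobase. Ccl6 exceeded Ccl9, and Ccl9 exceeded Ccl3, in 6 of 6 libraries. The next neighbours did not separate, as Ccl3 exceeded Ccl5 in 4 of 6 libraries and Ccl5 exceeded Ccl2 in 3 of 6. Ccl4 exceeded Cxcl2 in 6 of 6 libraries with no overlap of their ranges.

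**Figure D2:**
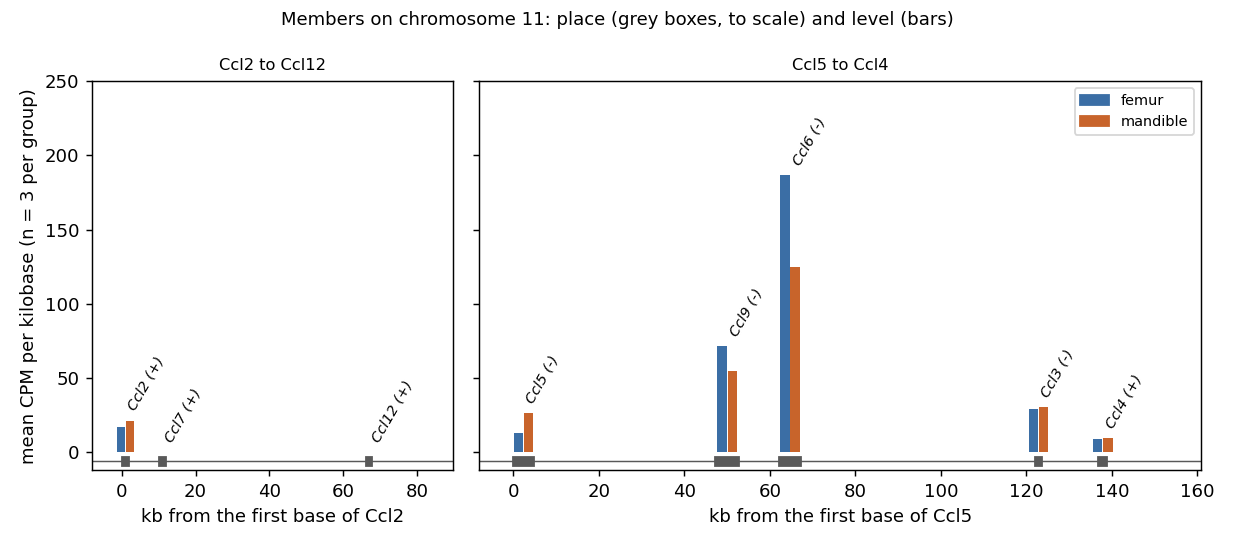
Mean level per length (CPM per kilobase of exon, n = 3 per group; the spread is in the plot of expression by library) of the 8 ligands on chromosome 11 against distance in kb within each gene cluster, with grey boxes for the genes to scale and the strand in parentheses. The highest bars were those of the neighbours Ccl6 and Ccl9, at 186 and 71.8 CPM per kilobase in the femur and 125 and 55.0 in the mandible.

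Ccl6, a Ccr1 ligand made by myeloid cells without stimulation, was the most abundant of the group. Its expression was 340 CPM in femur S13, 226 CPM in S15 and 438 CPM in S18. In the mandible it was 221 CPM in S16, 228 CPM in S19 and 225 CPM in S23. The mandible libraries lay between 221 and 228 CPM, beside femur S15, while the other femur libraries stood above them. The femur mean was 335 ± 106 CPM and the mandible mean 224 ± 3.30 CPM (SD, n = 3 per site), for a log2 fold change of -0.58 with a standard error of 0.30 and a 95% interval from -1.23 to 0.07 (edgeR quasi-likelihood, BH-adjusted p = 0.38). Ccl6 is also known from eosinophils and neutrophils, and the 8 eosinophil markers, all of them detected, summed to 5349, 792 and 5951 CPM in femur S13, S15 and S18 and to 429, 367 and 880 CPM in mandible S16, S19 and S23. Of these 8 markers, 4 were called lower in the mandible, against 1.30% of all tested genes. Among them was Prg2, the major basic protein, with a log2 fold change of -3.004 (edgeR quasi-likelihood, BH-adjusted p = 0.031). This call was lost after the correction on gene length (0.084) and without femur S13 (0.10), femur S18 (0.10), mandible S16 (0.13) or mandible S19 (0.17). The 12 neutrophil markers summed to 33273, 3750 and 23680 CPM in femur libraries and 7105, 10545 and 4061 CPM in the mandible. S100a8 was the single one of the 12 called lower, against 1.30% of all tested genes. Femur S13 and S18, with more Ccl6 than S15, also had more of both marker lists. The same held for the sum of monocyte markers (11162 and 17439 against 10293 CPM). It also held for the sum of T and NK cell markers (162.5 and 110.9 against 50.9 CPM). In the monocyte sum Lyz2 was the largest part, at 7776 CPM in S13 against 4630 CPM in S15. Fn1 (1061 against 2325 CPM) and F13a1 (980 against 1474 CPM), the next most abundant, were lower in S13 than in S15. In the mandible, neutrophil markers ran from 4061 to 10545 CPM while Ccl6 stayed between 221 and 228 CPM. The part of eosinophils and neutrophils in the Ccl6 counts was not tested. In bulk RNA, fewer cells of a type and less RNA per cell cannot be told apart. The noncoding gene E230016K23Rik overlaps Ccl6 on the other strand and had 23 to 131 counts, against 3926 to 9910 counts of Ccl6.

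Ccl9, another Ccr1 ligand and one known from osteoclast precursors, was at 200.01, 181 and 275 CPM in femur S13, S15 and S18 and at 183, 199.9 and 120.1 CPM in mandible S16, S19 and S23. S18 was the highest and S23 the lowest, and the other 4 libraries lay between 181 and 200.01 CPM. The log2 fold change was -0.38 with a standard error of 0.29 and a 95% interval from -1.03 to 0.26 (edgeR quasi-likelihood, BH-adjusted p = 0.62). With each library left out in turn, S23 included, it ran from -0.58 to -0.18. Both genes together took 83.0 to 93.4% of the reads of the 10 ligands in femur libraries and 75.7 to 86.3% in mandible libraries. The number of Ccl6 reads per Ccl9 read, which does not depend on the scaling of libraries, was 1.51 ± 0.236 for femur and 1.41 ± 0.403 for mandible libraries (SD, n = 3 per site), with overlapping groups (exact two-sided permutation test, p = 0.8, where 0.1 is the smallest that 3 against 3 libraries allow). Of the transcript windows of 50 bases in Ccl9, 1.97% also occur in other genes through a repeat.

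Ccl3 and Ccl4 are the macrophage inflammatory proteins 1α and 1β, early products of activated myeloid cells. Ccl3 was at 9.11, 31.7 and 26.1 CPM in femur S13, S15 and S18 and at 19.9, 30.1 and 20.3 CPM in mandible S16, S19 and S23. Its lowest and highest values were both from femur libraries, and the mandible values lay between them. The log2 fold change was 0.07 with a standard error of 0.44 and a 95% interval from -0.89 to 1.03, and its sign changed without femur S13 (-0.29) or mandible S19 (-0.20). Ccl4 was at 5.80, 9.12 and 3.09 CPM in femur libraries and at 3.70, 5.70 and 9.55 CPM in the mandible, in the same order of libraries. These values covered the same range in both groups, and the log2 fold change was 0.07 with a standard error of 0.62, -0.41 without mandible S23 and -0.24 without femur S18. The adjusted p was 0.97 for Ccl3 and 0.98 for Ccl4 (edgeR quasi-likelihood, BH). The number of Ccl3 reads per Ccl4 read ran from 1.57 in femur S13 to 8.44 in femur S18 and from 2.13 to 5.38 in the mandible, so the proportion of these neighbours varied more within the femur than between the sites.

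Ccl2, Ccl7 and Ccl12 are the monocyte chemoattractant proteins that bind Ccr2. Ccl2 was measured with 57, 671 and 538 counts in femur S13, S15 and S18, or 3.15, 30.9 and 23.8 CPM, and with 302, 479 and 615 counts in mandible S16, S19 and S23, or 15.1, 22.7 and 35.2 CPM. The gene Gm17268 overlaps Ccl2 on the other strand and had no count. Femur S13 stood below every other library, and the remaining 5 overlapped. The log2 fold change was 0.33 with a standard error of 0.64 (edgeR quasi-likelihood, BH-adjusted p = 0.89). Its 95% interval ran from -1.06 to 1.73, a ratio of mandible to femur between 0.479 and 3.32, so neither a difference of 2-fold upward nor one of 2-fold downward was outside the precision of these libraries. Without femur S13 the log2 fold change was -0.16, and without mandible S23 it was -0.08. Ccl2 is also known from mesenchymal cells, whose summed markers were at least 8746 CPM in each mandible library and at most 405 CPM in each femur library, while Ccl2 overlapped between the groups, and the part of these cells in the Ccl2 counts was not tested. Ccl7, the neighbour of Ccl2, had 9 counts in femur S15 and none in the other libraries. Ccl12 had no count in any library. Neither gene passed the filter on low counts, and transcripts of these proteins under 3 counts, or 0.118 to 0.191 CPM, were not detectable at this depth.

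Ccl5, known as RANTES and made by activated T cells, NK cells and platelets as well as by monocytes, was the ligand with the smallest p. Its expression was 17.6, 8.06 and 11.8 CPM in femur S13, S15 and S18 and 23.9, 16.3 and 36.1 CPM in mandible S16, S19 and S23. The groups overlapped by a single pair, as femur S13 lay above mandible S19, and the other mandible libraries lay above all femur libraries. The femur mean was 12.5 ± 4.79 CPM and the mandible mean 25.5 ± 10.02 CPM (SD, n = 3 per site), for a log2 fold change of 1.03 with a standard error of 0.42 and a 95% interval from 0.11 to 1.94. This difference did not pass the adjustment over all genes (edgeR quasi-likelihood, unadjusted p = 0.031, BH-adjusted p = 0.23), and the adjusted p ran from 0.051 to 0.56 over the alternatives. The exact two-sided permutation test gave p = 0.2. The log2 fold change was positive in all 6 fits that left out a library, from 0.63 without mandible S23 to 1.36 without femur S13, and it was 1.67 after the correction on gene length.

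The 11 markers of T and NK cells summed to 162.5, 50.9 and 110.9 CPM in femur S13, S15 and S18, the order that Ccl5 also had in the femur. In mandible S16, S19 and S23 they summed to 65.2, 90.7 and 141.2 CPM, and the highest value was that of S23, as for Ccl5. All 11 were detected and tested, and none was called (edgeR quasi-likelihood), against 5.18% of all tested genes. At an unadjusted p under 0.05 there were 2 of the 11, against 16.4% of all tested genes. They were Gzma and Ncr1, named here after their values were seen, with log2 fold changes of 2.01 and 1.64. Both had the sign of Ccl5 (edgeR quasi-likelihood, BH-adjusted p = 0.16 and 0.26). Nkg7, a granule protein of cytotoxic cells and the most abundant of the 11, had a log2 fold change of -1.28, opposite in sign to Ccl5 (edgeR quasi-likelihood, BH-adjusted p = 0.34). Nkg7 was called lower without femur S15 (0.038) and with every gene tested that had a count (0.0094). Of the 11, 5 had a log2 fold change above 0, and the median was -0.17. Platelet markers were lower in the mandible, in the direction opposite to Ccl5. The part of these cells in the Ccl5 counts was not tested.

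**Figure D3:**
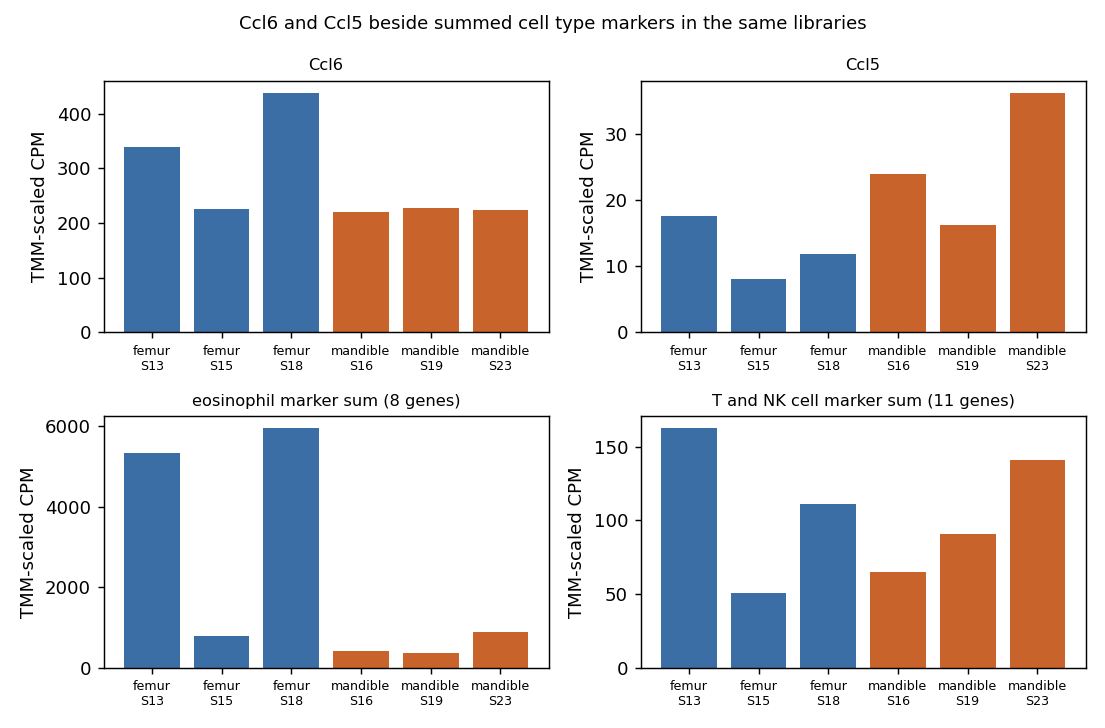
Ccl6 and Ccl5 (top) in each library beside the summed markers of eosinophils and of T and NK cells (bottom), all in TMM-scaled CPM on linear axes from 0, with femur libraries in blue and mandible libraries in orange. Femur S13 and S18 were highest in Ccl6 and in eosinophil markers (5349 and 5951 CPM), and mandible S23 was highest in Ccl5, with 36.1 CPM.

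The CXC ligands were the least abundant of the 8 tested ligands. Cxcl2, which attracts neutrophils through Cxcr2, was at 1.99, 1.29 and 4.42 CPM in femur S13, S15 and S18 and at 1.55, 2.71 and 8.98 CPM in mandible S16, S19 and S23. Mandible S23 held the highest value, and the others mixed. The log2 fold change was 0.78 with a standard error of 0.89 and a 95% interval from -1.17 to 2.72 (edgeR quasi-likelihood, BH-adjusted p = 0.77), and it was -0.32 without mandible S23. Of 2159 windows of 50 bases in the transcripts of Cxcl2, 126 also occur in those of its paralog Cxcl3, which had 7 counts in femur S15, 14 in mandible S23 and none elsewhere. Such reads cannot be assigned with certainty. Cxcl10, an interferon-inducible ligand of Cxcr3 on activated T cells, had 9, 47 and 36 counts in femur S13, S15 and S18 and 0, 17 and 13 counts in mandible S16, S19 and S23. The log2 fold change was -1.45 with a standard error of 1.64, the largest of the 8, and a 95% interval from -5.05 to 2.16, so the counts did not set even the direction. Art3 overlaps Cxcl10 on the other strand and had 4 to 31 counts in a library, and since the strand setting of the counting is not given in the sources used here, reads in the shared part cannot be told apart.

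**Figure D4:**
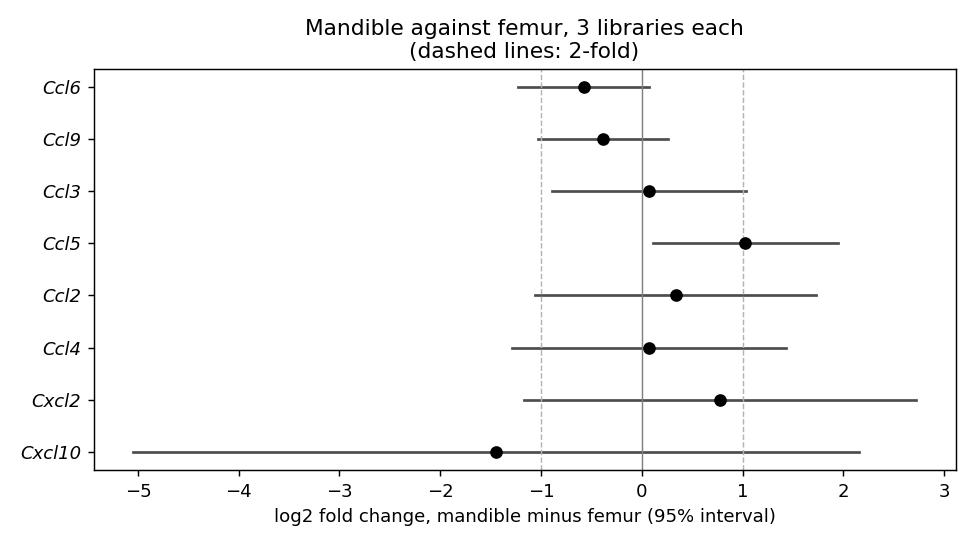
Log2 fold change of the 8 tested ligands (points, mandible minus femur, 3 libraries in each group) with the 95% interval (lines). The interval uses a standard error derived from edgeR's F statistic. Dashed lines mark a change of 2-fold. The interval of Ccl5 ran from 0.11 to 1.94, and the other 7 intervals included 0.

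The libraries of a group differed in which ligands they held most of. Femur S15 was the highest femur library for Ccl2, Ccl3, Ccl4 and Cxcl10 and the lowest for Ccl5, Ccl6, Ccl9 and Cxcl2. Femur S13 was the lowest for Ccl2, Ccl3 and Cxcl10. In the mandible, S16 was the lowest library for 6 of the 8 ligands and the highest for none, while S23 was the highest for Ccl2, Ccl4, Ccl5 and Cxcl2 and the lowest for Ccl9. The standard errors followed abundance in part, from 0.29 for Ccl9 and 0.30 for Ccl6 to 0.89 for Cxcl2 and 1.64 for Cxcl10, against a median of 0.50 over all tested genes.

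**Figure D5:**
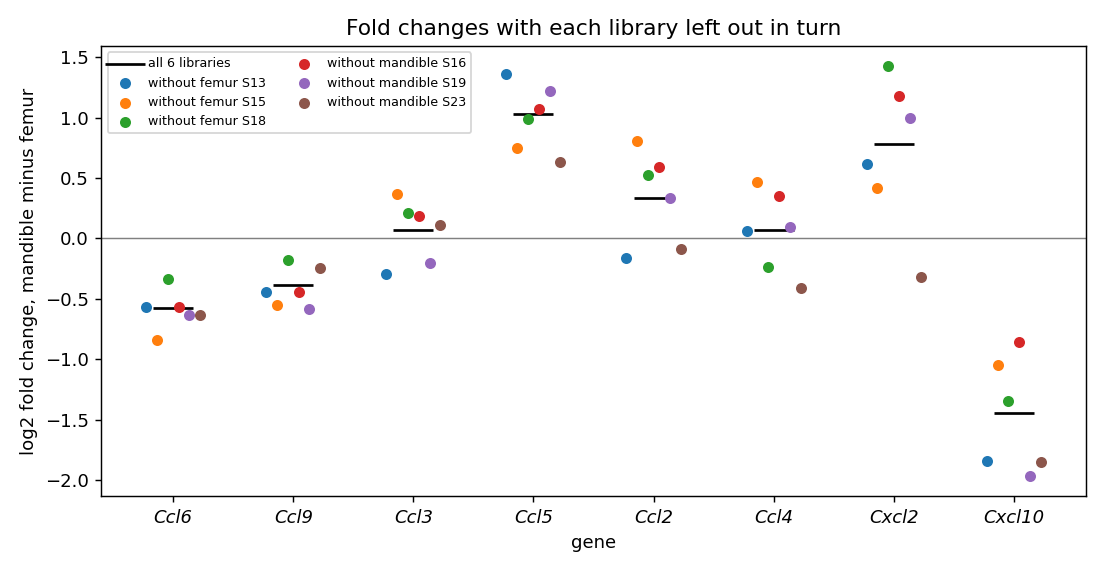
Log2 fold change of each tested ligand (mandible minus femur) with all 6 libraries (black bar) and with each library left out in turn (coloured points). The points of Ccl2, Ccl3, Ccl4 and Cxcl2 fell on both sides of 0, those of Ccl6, Ccl9 and Cxcl10 stayed below it and those of Ccl5 above it.

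Of 28 other chemokine ligands, 12 were tested, with 1 higher and 2 lower in the mandible, 7 without overlap between the groups and a median log2 fold change of -1.18, against 5.18% called and 24.2% without overlap over all tested genes. Ccl21a, a lymph node chemokine for cells with Ccr7, was higher, at a mean of 4.95 CPM in the mandible against 0.0614 CPM in the femur (edgeR quasi-likelihood, BH-adjusted p = 0.028). It was also called under DESeq2 (2.0e-05), edgeR's exact test (0.00031) and limma-voom (0.047). The call held without normalization factors (0.042), with every gene tested that had a count (0.0011) and after the correction on gene length (0.022). It held in only 1 of the 6 fits that left out a library, the one without femur S15. The adjusted p was 0.062 to 0.12 in the other 5. The 2 lower genes were the platelet chemokines Pf4, with 14.9, 9.35 and 17.0 CPM in mandible S16, S19 and S23 against 289, 92.4 and 242 CPM in femur S13, S15 and S18, and Ppbp, with 11.3, 4.32 and 24.4 against 95.7, 115 and 146 CPM. Both are also among the platelet markers given above. Cxcl12, the stromal ligand that retains cells in the marrow, was the most abundant of this list, is also on the mesenchymal list, and had 34.7, 57.7 and 120.9 CPM in the mandible against 243, 149 and 178 CPM in the femur, without overlap. Its log2 fold change of -1.42 did not pass the adjustment (edgeR quasi-likelihood, BH-adjusted p = 0.084). Cxcl12 was called under DESeq2 (0.018), edgeR's exact test (0.018) and limma-voom (0.022). The same held with every gene tested that had a count (0.00030), after the correction on gene length (0.049), and without femur S15 (0.042) or mandible S23 (0.014). Cxcl12 was not called without normalization factors (0.17) or with at least 10 counts required in every library (0.052). No other fit that left out a library called it, and without femur S13 the log2 fold change was -1.20 (0.32). Cxcl5, named here after its values were seen, was at 2.05 ± 0.025 CPM (SD, n = 3) in the femur and had no count in the mandible, which is at least 13.2-fold lower against 3 counts in each mandible library (edgeR quasi-likelihood, BH-adjusted p = 0.055). It was called under DESeq2 (0.0011), edgeR's exact test (0.0024) and with every gene tested that had a count (0.031).

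Among 8 receptors of these ligands, 6 were tested and none was called (edgeR quasi-likelihood), against 5.18% of all tested genes. At an unadjusted p under 0.05 there were 2 of the 6, against 16.4% of all tested genes. The groups did not overlap for 1 of the 6 (16.7%), Ccr1, against 24.2% of all tested genes. Ccr2, the receptor of Ccl2, was the most abundant, at 409, 793 and 778 CPM in femur libraries and 787, 849 and 369 CPM in the mandible, with S13 and S23 as the lowest libraries of their groups. Ccr1, the receptor of Ccl6 and Ccl9, was at 62.2, 60.2 and 64.6 CPM in femur libraries and 22.6, 49.9 and 29.9 CPM in the mandible, so that every mandible library lay below every femur library, with a log2 fold change of -0.87 (edgeR quasi-likelihood, BH-adjusted p = 0.17). DESeq2, edgeR's exact test and limma-voom called none of the 6 either. Cxcr2, the receptor of Cxcl2, spanned 4.84 to 56.0 CPM across femur libraries and 6.86 to 25.3 CPM across mandible libraries.

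None of the NF-κB subunits and feedback targets or of the interferon-stimulated genes was called in the main test, against 5.18% of all tested genes. Of 18 NF-κB subunits and feedback targets, all were tested, 15 had a log2 fold change above 0 and the median was 0.32, against -0.04 over all tested genes. At an unadjusted p under 0.05 there were 5 of 18, against 16.4% of all tested genes. The groups did not overlap for 7 of them (38.9%), each higher in the mandible, against 24.2% of all tested genes. The most abundant were Zfp36, an mRNA decay factor that targets cytokine transcripts, with a log2 fold change of 0.41, Nfkb1, a subunit, with 0.40, and Nfkbiz, a nuclear cofactor, with 0.80 (edgeR quasi-likelihood, BH-adjusted p = 0.60, 0.53 and 0.16). Tnfaip3, a feedback inhibitor of NF-κB named here after its values were seen, had a log2 fold change of 1.09 (edgeR quasi-likelihood, BH-adjusted p = 0.060) and was called in 6 alternatives, with adjusted p from 0.0084 under DESeq2 to 0.049 without normalization factors. Nfkbia, an inhibitor of NF-κB, was called after the correction on gene length (log2 fold change 1.13, adjusted p = 0.027). Relb, a subunit of the noncanonical pathway, was called under DESeq2 and under no other alternative (log2 fold change 1.22, adjusted p = 0.041). Of 20 interferon-stimulated genes, 18 were tested, none was called, 3 had an unadjusted p under 0.05 (edgeR quasi-likelihood), 12 lay above 0, the median was 0.04, and 4 did not overlap, near the 24.2% of all tested genes. Gbp3, Irf9 and Irf1, the most abundant of them, had log2 fold changes of 0.69, 0.02 and 0.27, with adjusted p of 0.28 to 0.98 (edgeR quasi-likelihood, BH). None of the 18 was called under DESeq2, edgeR's exact test or limma-voom.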

How the data were processed

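Reads were paired-end; after quality trimming in Trimmomatic, the authors aligned them to a genome named as GRCm38 using HISAT2 2.1.0 and assigned them to genes by featureCounts. The deposited values are raw counts per gene and library, without normalization, and the deposited table also gives gene length in bases. The strand setting of the counting and its use of reads with several positions are not given in the sources used here. Gene positions were taken from GENCODE M21 (GRCm38) by Ensembl identifier, since positions in the count table follow another build, and promoters from RefSeq (GRCm38.p6).

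The main test was the quasi-likelihood test of edgeR 4.0.16 (R 4.3.3), with femur as the baseline, no covariates, TMM scaling, a prior count of 0.125 and filterByExpr (10 counts per library, 15 in total). The standard error was taken as the absolute log2 fold change divided by the square root of the F statistic of that test. The 95% intervals use this approximate standard error and the total degrees of freedom of the fit. These are the residual ones plus the prior ones of its variance estimate. Single genes were tested by exact two-sided permutation of log2(CPM + 0.5). The test was tried on simulated data with known changes. The members and lists were chosen with earlier results of these data known. Named genes were every member, in each context list the 3 most abundant and up to 5 called genes, in each marker list discussed up to 3 abundant genes, and 5 sex-linked genes. The alternatives comprised limma-voom (limma 3.58.1), the exact test of edgeR, DESeq2 1.42.0, other normalizations, filters and thresholds, a loess correction on gene length (span 0.4), and each library left out.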

Additional observations from a re-analysis of the deposited data

How the results depend on the processing

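No paired analysis was possible because the groups share no replicate number in the labels. None of the 8 tested chemokine ligands was called under any alternative, and the smallest adjusted p were 0.051 for Ccl5 after the correction on gene length and 0.064 for Ccl6 without femur S15. With each library left out in turn, the log2 fold change ran from -0.16 to 0.81 for Ccl2, -0.29 to 0.36 for Ccl3, -0.41 to 0.47 for Ccl4, -0.32 to 1.42 for Cxcl2, -0.25 to 0.25 for Ccr2, -1.20 to 1.08 for Cxcr2, -0.14 to 0.15 for Irf9 and -0.049 to 0.46 for F13a1. The median of the 8 ligands was then between -0.29, with mandible S23 left out, and 0.39, with femur S15 left out. The mean difference in log2(CPM + 0.5) then ran from -0.23 to 1.32 for Ccl2, -0.32 to 0.56 for Ccl3, -0.28 to 0.43 for Ccl4 and -0.13 to 0.98 for Cxcl2. Other changes of sign were Ccr2 under limma-voom (-0.012), with every gene tested (-0.019) and after the length correction (-0.10), Cxcr2 under limma-voom (0.072), Irf9 with every gene tested (-0.010) and after the length correction (-0.027), and Lyz2 after the length correction (0.13). The length correction moved the median of the 8 ligands from 0.07 to 0.75, Ccl2 to 0.82, Ccl3 to 0.73, Ccl4 to 0.77 and Ccl5 from 1.03 to 1.67, and the cause of the difference was not tested.

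Over all genes, 938 were called (702 higher and 236 lower). The number was 1536 under DESeq2 (1083 higher, 453 lower), 1468 under edgeR's exact test (1000 higher, 468 lower), 1590 with every gene that had a count (1019 higher, 571 lower) and 445 at an adjusted p under 0.01 (384 higher, 61 lower). It was 792 without normalization factors (635 higher, 157 lower) and 791 after the length correction (674 higher, 117 lower). Leaving out a library gave 434 (without mandible S19) to 1565 (without femur S15) calls, 376 to 957 of them higher and 58 to 608 lower. Among the other ligands, the receptors and the NF-κB and interferon lists, 1 gene was called higher and 2 lower. These counts were 3 and 4 under DESeq2, 2 and 4 under the exact test, 2 and 4 with every gene tested, 2 higher without normalization factors and after the length correction, and 0 higher at an adjusted p under 0.01. Without 1 library they were 0 to 1 higher. Counts were lowest for Ccl7, Ccl12 and Cxcl10, and transcripts under 3 counts in a library were not detectable. Ccl7 and Ccl12 did not pass the filter on low counts.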
